A study of Malus hupehensis with 3 samples.

Results

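The families mdm-miR162, mdm-miR168 and mdm-miR403 are the apple members of the plant miRNA families that are known to target mRNAs of the silencing machinery itself. They were chosen by name: all known miRNAs whose names begin with one of these 3 numbers, which gave 6 of the 207 known names and 3 of the 85 distinct known mature sequences, in 3 of 43 families. Their sites were all degradome records under these names, 10 of 2204. The data came from leaves of Malus hupehensis, an apple rootstock, pooled over 18 trees 6 years old. Adult phase leaves (A) were taken from the tree top and juvenile phase leaves (J) from the base, and 1 small RNA library was made from each RNA pool. A single degradome library, in which the 5′ ends of cleaved transcripts are sequenced, was made from J. No condition was replicated and no genotype or treatment differed. Phase and height on the tree changed together, so they cannot be told apart. In pooled leaf RNA, fewer cells that hold a miRNA and less of it per cell cannot be told apart either.

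In Arabidopsis, miR162 directs cleavage of the mRNA of DCL1, the Dicer enzyme that cuts miRNAs out of their hairpin precursors. miR168 directs cleavage of the mRNA of AGO1, the Argonaute protein that carries most miRNAs to their targets, so that the pathway limits its own effector. miR403 directs cleavage of the mRNA of AGO2, an Argonaute known for its part in antiviral defence. These roles are background from Arabidopsis and were not measured in apple leaves here.

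Both names of each family, a and b, stand for 1 mature sequence. The 3 sequences are shown because the counts below are listed under them and the sites of cleavage are placed against them, with the seed (bases 2 to 8) in capitals.
mdm-miR162: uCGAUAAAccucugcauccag
mdm-miR168: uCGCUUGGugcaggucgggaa
mdm-miR403: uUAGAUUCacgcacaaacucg
All 3 were 21 nt long and began with U, as did 41 of the 85 known sequences. The GC content was 61.9% for mdm-miR168, 47.6% for mdm-miR162 and 42.9% for mdm-miR403, with a median of 50% over the known sequences. The seed of each was found in no other known sequence and in none of the 172 predicted ones. The nearest known sequence of another family differed at 7 bases from mdm-miR168, at 8 from mdm-miR162 and at 8 from mdm-miR403, over at least 16 aligned bases. The nearest predicted miRNA differed at 5 or more bases from each sequence and also at 5 or more from each reverse complement, so no predicted entry was within 3 mismatches of a member or of its opposite strand.

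The read counts of a and b were equal in each family, so each sequence was counted once. Equal counts were found for 35 of the 53 known sequences that have several names, and unequal counts for the other 18. A listed count therefore need not be the reads of exactly the sequence shown. Some distinct sequences also shared their counts, such as those of mdm-miR156q and mdm-miR156aa, each with 158 in A and 7244 in J. The known sequences used as background may thus stand for fewer sets of reads. The families lie at very different levels, and mdm-miR168 held 96.3% of the reads of the 3 in A and 94.5% in J.

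The A library had 10484 reads of mdm-miR168 and the J library 13108. Per 1000000 clean reads of the library (RPM), this was 646 in A (exact 95% interval 634 to 659) and 968 in J (951 to 984). By reads it ranked 9 in A and 7 in J among the 43 families. For mdm-miR162, A had 244 reads and J had 514, or 15.04 RPM (13.2 to 17.1) and 37.9 RPM (34.7 to 41.4). It ranked 21 in A and 20 in J. For mdm-miR403 the counts were 162 in A and 254 in J, or 9.99 RPM (8.51 to 11.6) and 18.7 RPM (16.5 to 21.2), with ranks of 23 and 22. The order mdm-miR168, mdm-miR162, mdm-miR403 was the same in both libraries, and the intervals of neighbours in that order did not overlap in either. Unless named otherwise, intervals are exact Clopper-Pearson limits for counting error alone. They treat reads as independent. Amplified reads that carry no molecular identifier are not independent molecules, so the intervals may be too narrow. Adapter ligation can favour some sequences, so levels of different miRNAs are levels of reads.

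**Figure D1:**
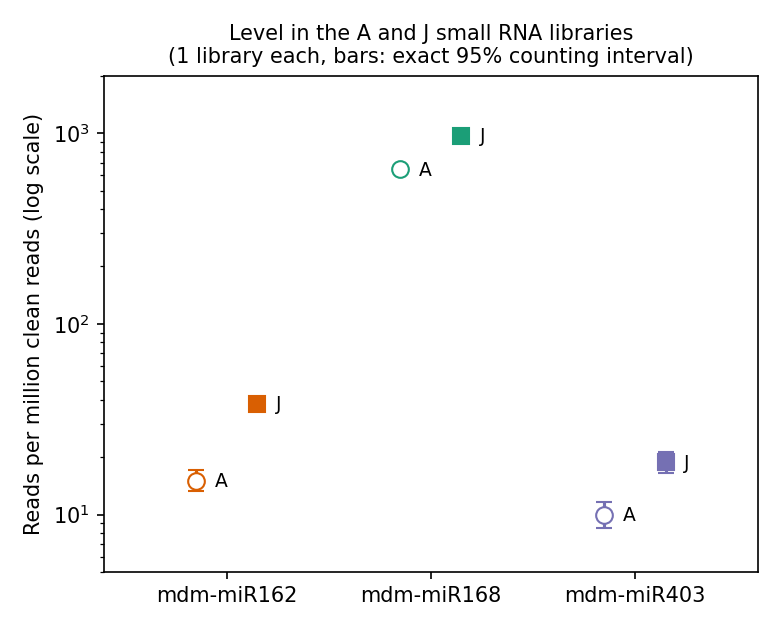
Reads per 1000000 clean reads on a log axis for the 3 families in the A (open circles) and J (filled squares) libraries, 1 library each, with exact 95% counting intervals as bars. mdm-miR168 lies at 646 and 968 RPM, far above mdm-miR162 at 15.04 and 37.9 and mdm-miR403 at 9.99 and 18.7. Each J point lies above its A point on this scale. This does not hold under known miRNA totals for mdm-miR168 and mdm-miR403, nor under the median ratio and TMM for mdm-miR168.

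To ask whether the 3 families differed between juvenile and adult leaves, J was set over A. Scaled by clean reads, mdm-miR162 had a ratio of 2.52 (95% interval 2.16 to 2.95), mdm-miR403 of 1.88 (1.54 to 2.30) and mdm-miR168 of 1.497 (1.46 to 1.54), of which the latter pair fell below 1 on another scale given below. A sequence was called different when the ratio was at least 2 or at most 0.5, the interval held no 1 and a library had 10 or more reads. Of the 3 members, 1 was called, mdm-miR162, higher in J, and this call was lost under 3 of the 5 other scales, with ratios of 1.07, 1.56 and 1.59. Over the 59 known sequences with 10 or more reads, 37.3% were called higher in J and 45.8% were called in either direction, so this share is near the background. The interval lay wholly above 1 for all 3 members and for 66.1% of the known sequences. The median ratio was 1.88 for the members and 1.62 for the known sequences.

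**Figure D2:**
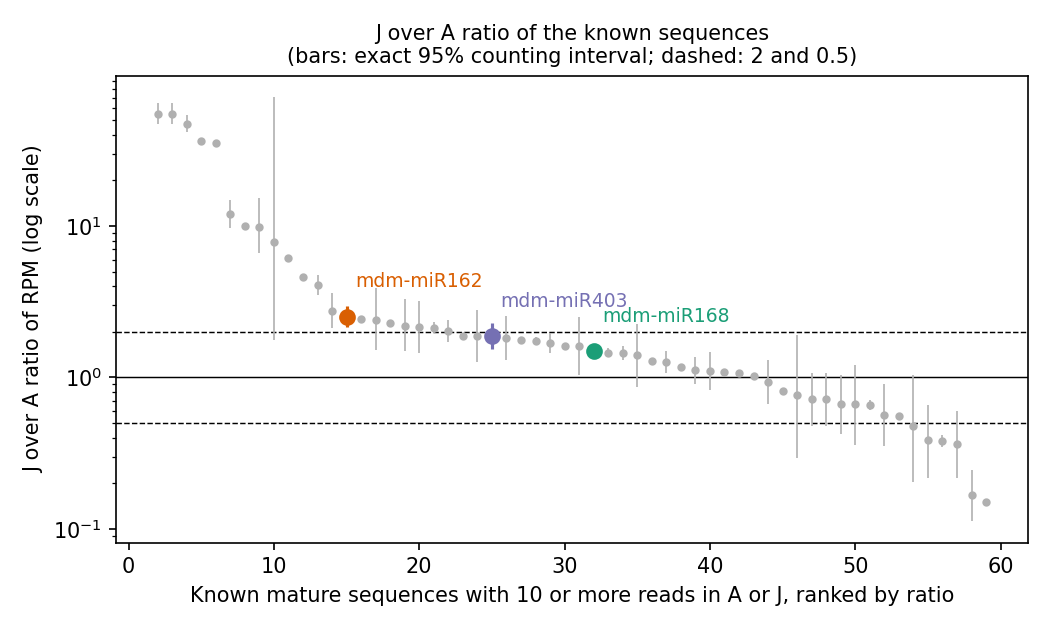
J over A ratio of RPM on a log axis for the known sequences with 10 or more reads, ranked from the highest, with exact 95% counting intervals and dashed lines at 2 and 0.5. The 3 members (coloured) rank 15, 25 and 32 of the 59, at 2.52 for mdm-miR162, 1.88 for mdm-miR403 and 1.497 for mdm-miR168. The ratios of mdm-miR403 and mdm-miR168 were below 1 under known miRNA totals, and that of mdm-miR168 also under the median ratio and TMM. Of the 59 sequences 1, with no read in A, has no finite ratio and is not drawn.

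The rank of a ratio does not change with the scale of the libraries. From the highest, mdm-miR162 ranked 15 of 59, with 44 sequences (74.6%) below it. mdm-miR403 ranked 25, with 34 sequences (57.6%) below it, and mdm-miR168 ranked 32, with 27 (45.8%) below it. Thus mdm-miR168 sat just under the middle of the known sequences and mdm-miR162 above the middle.

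The size of each ratio did change with the scale, and for mdm-miR168 and mdm-miR403 the direction changed too. As a share of all known miRNA reads, mdm-miR168 made up 1.34% of A (1.31 to 1.36) and 0.852% of J (0.837 to 0.866). On this scale of known miRNA totals mdm-miR162 had a ratio of 1.07 (0.920 to 1.26), and mdm-miR403 and mdm-miR168 fell below 1, at 0.799 (0.653 to 0.979) and 0.637 (0.621 to 0.654). Scaled so that the known sequences had a median ratio of 1, the values were 1.56 (1.34 to 1.83) for mdm-miR162, 1.16 (0.952 to 1.43) for mdm-miR403 and 0.928 (0.905 to 0.953) for mdm-miR168. The median log2 ratio of known sequences under clean reads was 0.69, and relative to it only mdm-miR162 of the 3 had an interval wholly above 1. The call of mdm-miR162 was lost under known miRNA totals, under the median ratio and under TMM (1.59, 1.36 to 1.86). It was kept when mdm-miR156 and mdm-miR535 were taken out of the known totals (2.04, 1.75 to 2.38) and with raw reads (2.11, 1.81 to 2.46). On these scales 25.4% and 28.8% of the known sequences tested were called higher in J, so the kept call is not particular to mdm-miR162.

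**Figure D3:**
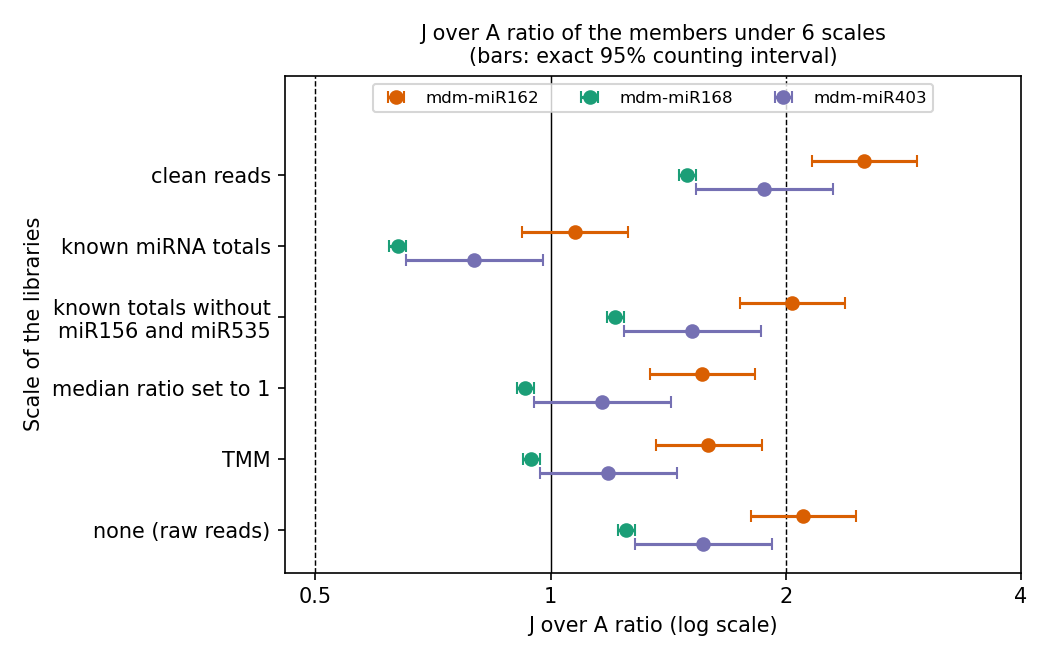
J over A ratio of each member on a log axis under 6 ways of scaling the libraries, with exact 95% counting intervals and lines at 0.5, 1 and 2. The ratio of mdm-miR162 stays to the right of 1, from 1.07 to 2.52, but its interval under known miRNA totals holds 1 (0.920 to 1.26). The ratio of mdm-miR168 runs from 0.637 to 1.497 and that of mdm-miR403 from 0.799 to 1.88, and both cross 1.

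Ratios between the members within 1 library need no scale. For each read of mdm-miR162, 43.0 reads of mdm-miR168 were counted in A and 25.5 in J. For each read of mdm-miR403, 64.7 reads of mdm-miR168 were counted in A and 51.6 in J. Against mdm-miR168, mdm-miR162 thus stood higher in J, by a ratio of 1.68 (exact conditional 95% interval 1.44 to 1.97). Against the same family, mdm-miR403 stood higher in J by 1.25 (1.02 to 1.54). Between the smaller families, mdm-miR162 had 151 reads per 100 reads of mdm-miR403 in A and 202 in J, which is 1.34 times as many (1.04 to 1.74). These intervals hold counting error only, and the lower limits of the last 2 are close to 1.

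Other known families are known from other plants for starting the production of secondary siRNAs: mdm-miR390, mdm-miR482, mdm-miR828 and mdm-miR2118. Their sequences were taken by family name, with both arms of mdm-miR482a and lengths of 21 and 22 nt among them. Whether each sequence starts secondary siRNAs was not tested. Of their 8 distinct sequences 7 had 10 or more reads. Under clean reads 1 of these 7 was called higher in J and 0 lower, against 37.3% of the known sequences called higher in J and 45.8% in either direction, and the ratios ran from 0.569 to 2.43 with a median of 1.07. The direction turned with the scale: under known miRNA totals 0 were called higher in J and 5 lower, with a median ratio of 0.457, and with the median ratio of known sequences at 1 these were 0 and 2, with 0.666. Of all known sequences tested, 16.9% were called higher in J and 37.3% lower under known miRNA totals. Under the median ratio 22.0% were called in each direction. The one called under clean reads was mdm-miR2118, which had 3247 reads in A, 6599 in J and thus a J over A ratio of 2.43 (2.33 to 2.54). That call was lost under known miRNA totals (1.04), with mdm-miR156 and mdm-miR535 taken out of them (1.97), under the median ratio (1.51) and under TMM (1.54), and it was kept with raw reads (2.03). The called sequence is known from other plants for its pairing with disease resistance gene transcripts.

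The degradome of J listed sites for mdm-miR168 in 3 gene models and for mdm-miR162 in 1, and none for mdm-miR403. As both names of a family give the same record, the 8 records of mdm-miR168 and 2 of mdm-miR162 stand for 5 combinations of gene model and site. No other miRNA, known or predicted, had a record at any of these 4 gene models. Each record of the authors holds the site's position, numbered along the plus strand of the gene model with its first base as 1, a count there and a pairing score. The score equalled 1 for each mismatch plus 0.5 for each G:U pair in all 2204 records, so 0 is a perfect pairing, and the highest was 4. The smallest count listed for a known miRNA was 25 and the median 76, and the total depth of the library is unknown here.

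The 3 gene models of mdm-miR168, MDP0000161046, MDP0000069525 and MDP0000305971, carry the same annotation from the study, Stabilizer of iron transporter SufD / Polynucleotidyl transferase, with the Arabidopsis locus AT1G48410.1, which is the AGO1 locus. They fall into 2 kinds by how they pair. The stretch of MDP0000161046 from base 539 to 559 of 3348 is the perfect complement of mdm-miR168. It is written once for each of its sites, with the base at which the site lies in capitals.
MDP0000161046, site 550: ttcccgacctgCaccaagcga
MDP0000161046, site 545: ttcccgAcctgcaccaagcga
Plant miRNAs direct the cut between the target bases that face their bases 10 and 11, so that the 3′ fragment starts opposite base 10. The site at 550 lay opposite base 10 of mdm-miR168 and had a count of 69. The site at 545 lay 5 bases upstream, opposite base 15, and had a count of 297, which is 4.30 times as large. Of the 366 counts at the listed sites of this gene model, 18.9% (exact 95% interval 14.97 to 23.2) were thus opposite base 10. The interval holds counting error only and treats the counts as independent reads. Any degradome reads elsewhere on the gene model are not listed.

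The stretches of MDP0000069525 (bases 389 to 409 of 3279) and MDP0000305971 (bases 3410 to 3430 of 6132) were identical and differed from the perfect complement at the bases in capitals.
MDP0000069525 and MDP0000305971: tCcccgaGctgcaccaagcAa
These differences are G2A, C14G and T20C, numbered from the 5′ end of mdm-miR168, where the first letter is the base of the perfect complement and the last that of the gene model. The site lay opposite base 10 in both, at base 400 and base 3421, with a score of 3 and a count of 26 in each. The 31-base windows given for the 2 gene models differed at 1 base, base 2, which lies before the site, and the 17 bases from the site onward were the same. The equal count of 26 may therefore stand for 1 set of reads, and it is 1 above the smallest count listed. The sites were 2879 and 2711 bases from the ends of these models, and site 550 of MDP0000161046 was 2798 bases from its end.

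For mdm-miR162, the 1 gene model was MDP0000187512, annotated by the study as a LETM1-LIKE protein with the Arabidopsis locus AT3G11560.2, a name used for relatives of a mitochondrial inner membrane protein. No record paired mdm-miR162 with a gene model annotated as a Dicer. The stretch that pairs with it, from base 1536 to 1556 of 2472, is shown with its differences from the perfect complement in capitals.
MDP0000187512: GtggatgcagagTtttatcAa
The differences were G2A, G9T and C21G, numbered as above from the 5′ end of mdm-miR162. The site at base 1547 lay opposite base 10, next to the difference at base 9, with a count of 175 and a score of 3. Across known miRNAs, 61 of 159 combinations of gene model, family and site (38.4%) had a lowest score of 3 or more.

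Over these 159 combinations, 81.1% lay opposite base 10 of at least 1 name of the family, and 4 of the 5 member sites did. The site at 545 of MDP0000161046 was the exception. Sites opposite none of bases 9 to 11 were found in 11 combinations, and its count of 297 was the largest of them, followed by 73. Opposite base 15 there was 1 other combination, for mdm-miR390 in MDP0000145463, with a count of 31. By count, the site at 545 (297) ranked 36 of 159, the mdm-miR162 site (175) ranked 48, the site at 550 (69) ranked 86 and both sites of 26 ranked 156. A perfect pairing was listed for 20 combinations, in 10 gene models of 3 families, mdm-miR156, mdm-miR171 and mdm-miR168. More than 1 site of a family was listed in 18 pairs of gene model and family, of which 16 had a site opposite base 10. In 1 of these 16, MDP0000161046, the largest count lay elsewhere. This could not happen in all of the others, since base 10 of any name of the family was accepted. In some, such as MDP0000151144, every listed site lay opposite base 10 of some name, whereas mdm-miR168 has 1 sequence only. Some pairs also repeat the same counts, as MDP0000119458 and MDP0000171877 do, so the 16 may stand for fewer sets of reads. No test of this pattern is given, since there is 1 degradome library.

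**Figure D4:**
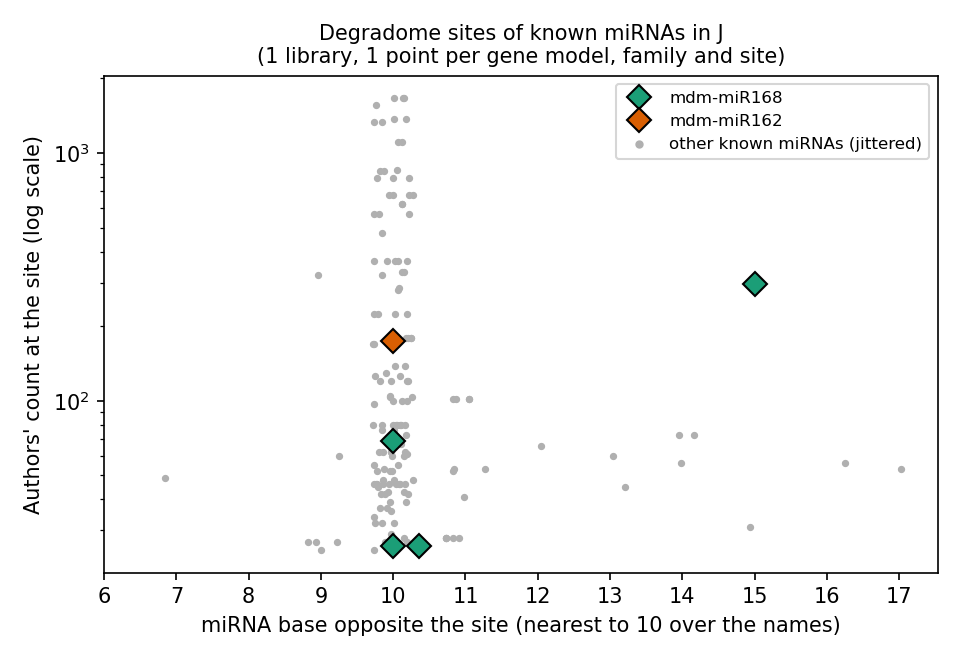
The authors' count at each degradome site of known miRNAs (log axis) against the miRNA base that lies opposite the site, 1 point for each combination of gene model, family and site, in 1 library from J. Member sites are diamonds: mdm-miR162 (175) and 3 of the 4 mdm-miR168 sites (69, 26 and 26, the last moved sideways) are at base 10, and the mdm-miR168 site of 297 stands alone at its height at base 15.

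The gene models MDP0000175678 (UDP-Glycosyltransferase superfamily protein) and MDP0000272603 (MuDR family transposase), which have been listed as targets of mdm-miR403, had 0 records for any miRNA in the degradome file. The family mdm-miR403 is 1 of 18 known families with no record, against 25 with records. Families with and without records overlapped in reads: 12 of the 25 families with records had fewer reads in J than the 254 of mdm-miR403, and 8 of the 18 without had more. The 436 distinct windows of 31 bases in the file were also compared with the perfect complement of each member. No window came nearer than 9 differences to mdm-miR403, and no window outside their own records came nearer than 10 to mdm-miR162 or mdm-miR168. This comparison cannot add to the lack of records. The file holds only windows already paired with a miRNA, so one near a member would be listed as its record. Transcripts outside the file were not compared. The lengths of all 271 gene models in the records were multiples of 3, so they are coding lengths, and a site in an untranslated region would not be covered. In Arabidopsis the miR403 site of AGO2 lies in the 3′ untranslated region, and whether this bears on the lack of records in apple was not tested.

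Within J, the only phase with both kinds of library, the 3 members can be set side by side. mdm-miR168 had 968 RPM and site counts of 297, 69 and 26, mdm-miR162 had 37.9 RPM and a site count of 175, and mdm-miR403 had 18.7 RPM and no site. No relation is drawn from 3 points. Since no degradome was made from A, it cannot be said whether any of these sites differed between the phases.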

How the data were processed

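Small RNAs of 18 to 30 nt were sequenced, and after removal of adapter and low-quality reads the authors annotated known miRNAs by miRBase 18.0 with fewer than 2 mismatches. The deposited values are raw counts of reads, without normalization, for 380 entries. Names were matched to sequences through the supplementary tables, whose values were not used. Degradome fragments were matched by the authors with the apple genome, sites were paired with miRNAs in PairFinder, and the deposited position, count and score were used as given. Its version was not given in the sources used here. The site was placed at base 15 of each 31-base window, because all 3 records with a site at base 15 of the gene model begin with ATG.

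Where names shared a sequence, the largest of their counts was used once. The deposited entries held 4272351 reads for A and 6275651 for J in all. Counts were divided by the clean reads of each library, which were 1.20 times as many in A as in J. These totals come from the study's text, while its printed read statistics repeat the A total for J. Equal totals would give the ratios listed for raw reads. With 1 library per group, no test was run. Intervals are 95% and were computed in SciPy 1.17.1 (Python 3.11.15, numpy 2.4.6). They were tested on simulated Poisson counts, which hold no effect of amplification. TMM was taken from edgeR 4.0.16 (R 4.3.3), and figures were drawn in matplotlib 3.10.9. The text names all 6 names, all their gene models, and a list of 4 families that trigger secondary siRNAs. The members and lists were chosen with earlier results of these data known. Alternatives changed the scale, the ratio limit, the read minimum, the counting of names, the site minimum, the score and the place of the site. The scales for the list of 4 families were chosen after seeing the data.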

Additional observations from a re-analysis of the deposited data

How the results depend on the processing

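Under clean reads the J over A ratios were 2.52 for mdm-miR162, 1.497 for mdm-miR168 and 1.88 for mdm-miR403. They were 1.07, 0.637 and 0.799 under known miRNA totals, 2.04, 1.21 and 1.52 when mdm-miR156 and mdm-miR535 were left out of these totals, 1.56, 0.928 and 1.16 when the median ratio was 1, 1.59, 0.945 and 1.19 under TMM, and 2.11, 1.25 and 1.57 with raw reads. The causes of these shifts are the scales themselves, since each scale multiplies every ratio by 1 number. Of the 59 known sequences 27 were called different, and 15 with a ratio limit of 4. The split of calls moved from 22 higher in J and 5 higher in A to 10 and 22 under known miRNA totals and to 13 and 13 under TMM or the median ratio. The limit of 4 removed the call of mdm-miR162. The limit of 1.5 added that of mdm-miR403, but at this limit 39 of the 59 known sequences were called, 31 of them higher in J. The ratios within a library did not change when names were summed and stayed within their intervals with 0.5 added to each count. Of the 5 member sites, 3 had a count of 50 or more and 2 had 100 or more. A score of 2 or less was held by 2, both in the same stretch of MDP0000161046, and 4 lay opposite bases 9 to 11. Of the 159 known combinations, 87 had a count of 69 or more and 48 had 175 or more. A lowest score of 3 or more was found in 61 of them, and 11 lay opposite none of bases 9 to 11. No paired analysis was possible because each group has 1 library. The depth of 162 to 514 reads limits the ratios of mdm-miR162 and mdm-miR403, and no interval covers the variation between trees or libraries.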
